A study of Homo sapiens with 12 samples.

Results

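The change from untreated human embryonic stem cells to cells labelled as given doxycycline (Dox) for 6 days was described from 6 of the 12 arrays of the study, the 3 titled as Dox at day 6 and the 3 titled as untreated at d0. Both groups were H9 cells, an established human embryonic stem cell line, at passages 28 to 35. All arrays, the untreated ones included, came from cells carrying a Tet-on construct, in which Dox switches on the germ cell nuclear factor GCNF (gene symbol NR6A1). The untreated d0 cells were kept undifferentiated on coated plates in mTeSR, a stem cell medium, with no Dox. The Dox-labelled day 6 cells had 1 µg/ml Dox for 6 days in DMEM/F12 with 15% serum, the medium used to start differentiation. The other 6 arrays gave levels beside these. Of them, 3 came from undifferentiated cells with 1 µg/ml Dox for 4 days, and 3 came from day 6 cells in the serum medium labelled as given 1 µM retinoic acid (RA) in place of Dox. Medium, time and treatment all differ between the 2 groups compared, so their parts in any change cannot be told apart. Cells in serum medium without Dox or RA, and Dox-treated cells without the construct, were not analysed here. The labels call the 3 arrays of a group biological replicates and do not say how the cultures were separated.

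Human embryonic stem cells renew themselves through a network of transcription factors around OCT4 (POU5F1), NANOG and SOX2, held up by FGF and NODAL or activin signals from the medium. When those signals are withdrawn and serum is given, the network shuts down and genes of the germ layers, of mesenchyme and of the extracellular matrix come on. GCNF is an orphan nuclear receptor known to repress Oct4 and Nanog as embryonic stem cells differentiate. Retinoic acid acts through the receptors RARA, RARB and RARG, which switch on 3′ HOX genes and the CYP26 enzymes that break retinoic acid down.

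NR6A1 was read by 7 probe sets, called A to G here, of which A to D were designed on mRNA or genomic sequence and E to G on expressed sequence tags. Probe set A gave signals of 46.9, 19.5 and 14.0 in the untreated d0 arrays and 31.6, 14.5 and 41.6 in the Dox-labelled day 6 arrays. These groups overlapped, and the log2 difference was 0.11 ± 0.30 (SE, limma, adjusted p = 0.831 over all probe sets). In the d0 arrays with Dox probe set A gave 606, 660.1 and 580.1, and in the RA-labelled day 6 arrays 355, 395 and 258. It was therefore high in the d0 arrays with Dox and in the RA-labelled arrays and low in the Dox-labelled day 6 arrays, which goes against the day 6 labels of a construct that Dox induces. Probe sets C and D were higher in Dox-labelled day 6 than at d0, by 0.42 ± 0.14 and 0.50 ± 0.15 (adjusted p of 0.0404 and 0.0249), and B differed by -0.84 ± 0.46 with an adjusted p of 0.189. The expressed sequence tag probe sets E, F and G were all lower (-0.77 ± 0.16, -0.64 ± 0.15 and -0.54 ± 0.15). Probe set G represents NR6A1 below, with 1328, 1496 and 1548 in the untreated d0 arrays and 858, 1264 and 904 in the Dox-labelled day 6 arrays, and its call went the other way from those of C and D and was lost when probe sets were averaged. Which part of the transcript each probe set reads was not tested, and neither was whether the construct carries it. The groups are therefore called by their labels, Dox-labelled and RA-labelled, throughout, and the values of the RA-labelled arrays stand beside the main results.

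**Figure D1:**
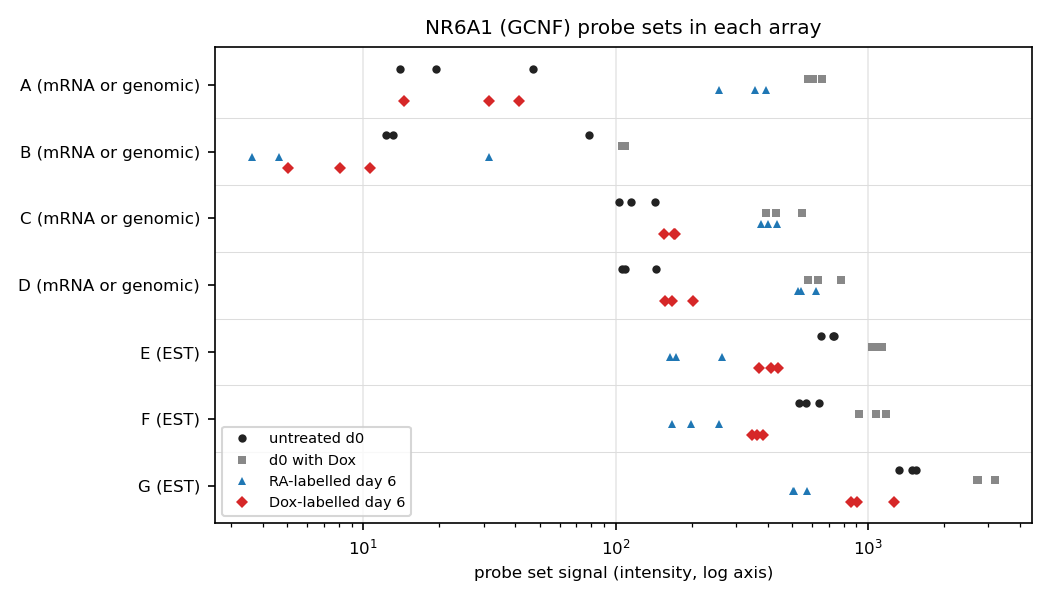
Signal of each of 7 NR6A1 probe sets (rows A to G) in every array, as linear intensity on a log axis; each point is 1 array, 3 per group. In probe set A the Dox-labelled day 6 arrays lie at 31.6, 14.5 and 41.6, among the untreated arrays, while the RA-labelled arrays lie at 355, 395 and 258.

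Signals are linear intensities, and levels are given as means ± SD over 3 arrays. Changes are differences of log2(intensity + 16) ± SE, Dox-labelled day 6 minus untreated d0, and a gene is said to have risen or fallen only where the limma test over all 12 arrays gave a Benjamini-Hochberg adjusted p under 0.05. Of 19775 genes, 4873 rose (24.6%) and 4712 fell (23.8%), 48.5% in all. With a change of at least 2-fold as well, 2036 rose (10.3%) and 1847 fell (9.34%), and changes past 10-fold were seen for 168 genes upwards and 98 downwards. Since so many genes passed, counts of rises below are read against 24.6%, counts of falls against 23.8% and both together against 48.5%. The median change over all genes was -0.01. Centring each array on its median signal moved that median to 0.11 and the split to 5709 genes higher and 3828 lower. With the RA-labelled in place of the Dox-labelled arrays, a setting added after the values were seen, 5007 genes were higher and 4986 lower than at d0. The difference between the 2 day 6 groups passed for 5120 genes (25.9%), with 2713 higher (13.7%) and 2407 lower (12.2%) at the Dox-labelled day 6. That comparison uses the same 3 Dox-labelled arrays. Arrays of a group correlated at 0.986 to 0.988 over the log2 values of the 19775 genes, 1 probe set each. The ACTB 3′ to 5′ signal ratio, a sign of RNA integrity and labelling, was 3.24 ± 0.139 at d0 and 2.33 ± 0.058 at Dox-labelled day 6, and the GAPDH ratio 1.53 ± 0.058 and 1.46 ± 0.023. The part of that difference in the results was not tested. In RNA from whole cultures, fewer cells of a type and less RNA per cell cannot be told apart.

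Among the 12 largest falls, NANOG stood first. NANOG, a core pluripotency factor, gave 11547, 11189 and 12279 in the untreated d0 arrays and 39.9, 33.4 and 36.9 in the Dox-labelled day 6 arrays. The groups lay far apart, and NANOG fell by 222-fold, a log2 change of -7.79 ± 0.08 (adjusted p = 8.37e-12). NANOG has near-identical copies elsewhere in the genome that its probe set may also read. LEFTY1, a secreted inhibitor of NODAL, gave 26618, 23665 and 29253 in the untreated d0 arrays and 120.1, 156 and 175 in the Dox-labelled day 6 arrays and fell by 160.5-fold. PRDM14, a transcription factor of stem and germ cells, fell from 2959 ± 484 to 14.1 ± 6.44; its day 6 level is under 16, so the size of its change of -6.64 depends on the constant added. The same holds for LCK, a tyrosine kinase best known from T cells, which fell from 1244 ± 139 to 5.76 ± 1.69 (-5.85 ± 0.30). ZIC2, a zinc finger factor of stem cells and neural tissue, fell from 10360.5 ± 305 to 233 ± 20.2 (-5.39 ± 0.09), and NODAL, the ligand that maintains the undifferentiated state, fell from 4240.0 ± 305 to 126 ± 53.3 (-4.98 ± 0.26). GLB1L3, a gene related to beta-galactosidase, fell (-5.36 ± 0.15), and the long noncoding RNA LINC01844 (-5.02 ± 0.19). The remaining 4 of the 12 largest falls were the transcript of the miR-302 cluster and 3 copies of POU5F1, both described below.

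Among the 12 largest rises, CYP26B1 stood first. This enzyme, which oxidises retinoic acid, gave 64.5, 41.8 and 51.5 in the untreated d0 arrays and 5412, 5089.9 and 4722 in the Dox-labelled day 6 arrays and rose by 74.7-fold, a log2 change of 6.22 ± 0.23 (adjusted p = 1.40e-08). All 3 day 6 arrays lay far above the 3 untreated ones, and the RA-labelled arrays lay at 32.9, 54.6 and 52.2, among the untreated values. HOXB3 rose by 5.98 ± 0.31 and HOXB1 by 5.36 ± 0.20, both from d0 means under 16, and MEIS2, a homeobox cofactor of HOX proteins, rose from 252 ± 57.0 to 13459 ± 569 (5.67 ± 0.13). DLX2, a homeobox gene of forebrain and neural crest, rose from 14.6 ± 13.0 to 1591 ± 60.2 (5.795 ± 0.28). Also among them was SCN7A, a member of the sodium channel family, which rose by 5.73 ± 0.13. Both of these had d0 means under 16 too. LOX, which cross-links collagen, gave 428, 437 and 399.9 in the untreated d0 arrays and 18556, 19522 and 20965 in the Dox-labelled day 6 arrays and rose by 44.97-fold. KRT7, a keratin of simple epithelia, rose from 99.7 ± 39.5 to 5024 ± 222 (5.51 ± 0.22), and INHBA, the activin A subunit, rose from 51.6 ± 10.4 to 2714 ± 128 (5.35 ± 0.18). IGFBP6, which binds IGF2, rose from 229 ± 40.3 to 9376 ± 395 (5.27 ± 0.14). CLSTN2, a cadherin-related membrane protein, rose by 5.82 ± 0.13 and the long noncoding RNA LINC02381 by 5.92 ± 0.30. Of these 12, 5 had a much smaller change when the probe sets of the gene were averaged, the probe set used here included. The averages were 3.20 for CYP26B1, 2.81 for DLX2, 3.17 for HOXB1, 3.07 for HOXB3 and 1.80 for KRT7, all still past the threshold. Tested on its own, no other probe set of these 5 genes passed, and the other probe set of DLX2 had the opposite sign.

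**Figure D2:**
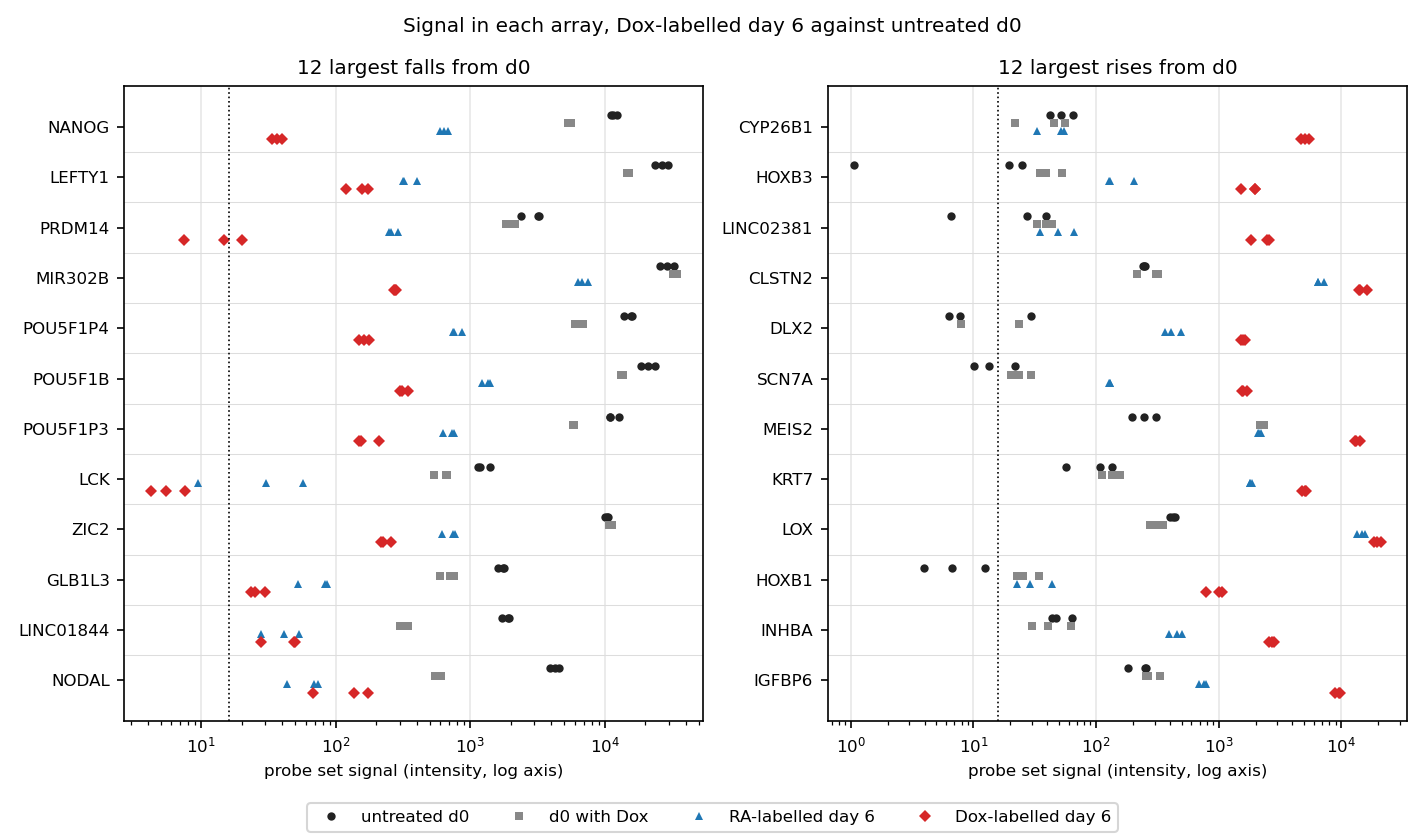
Signal of the 12 genes with the largest falls (left) and the 12 with the largest rises (right), as linear intensity on a log axis; each point is 1 array, 3 per group, and the dotted line marks an intensity of 16. The Dox-labelled day 6 arrays of NANOG lie at 39.9, 33.4 and 36.9 and the untreated ones at 11547, 11189 and 12279; for CYP26B1 the Dox-labelled arrays lie at 5412, 5089.9 and 4722.

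Pluripotency transcription factors fell nearly throughout. Of 20 measured, 18 fell, 1 rose and 1 did not pass, with a median change of -1.88. SOX2, the partner of OCT4, gave 16301, 17211 and 17423 in the untreated d0 arrays and 1589, 1791 and 1451 in the Dox-labelled day 6 arrays and fell (-3.39 ± 0.10), with no overlap between the groups. OTX2, a homeobox gene also used in forebrain development, fell from 2526 ± 87.8 to 86.3 ± 18.5 (-4.65 ± 0.12). ZSCAN10 fell from 1488 ± 44.2 to 62.2 ± 40.8, ZFP42 (REX1) from 6793 ± 1546 to 756 ± 33.5 and FOXD3, shared with neural crest, from 288 ± 31.2 to 6.54 ± 6.83. The single rise was KLF5, a Krüppel-like factor, from 179 ± 68.1 to 468 ± 50.4 (1.37 ± 0.23), and KLF4 did not pass (-0.18 ± 0.11). In the Dox-labelled arrays 7 of the 20 were lower than in the RA-labelled ones and 3 higher. NANOG was lower (-3.64 ± 0.08) and SOX2 (-0.38 ± 0.10), while MYCN, with 2519.7 against 449, was higher by 2.45 ± 0.12.

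In the annotation used, POU5F1 had no probe set of its own. The probe set annotated to it is also annotated to 3 near-identical copies, POU5F1P3, POU5F1P4 and POU5F1B, and gave 13488, 13502 and 15012 in the untreated d0 arrays and 335, 353 and 324 in the Dox-labelled day 6 arrays. That signal fell by 39.7-fold, a log2 change of -5.31 ± 0.08 with an adjusted p of 3.67e-10 among all probe sets. The probe sets annotated to one copy each fell (-5.96, -6.41 and -5.97) in that order. Which of the 4 genes gave the signal was not tested. The RA-labelled arrays gave 917, 848 and 936 in the shared probe set and the d0 arrays with Dox 7896, 7975 and 8005, so the Dox-labelled day 6 arrays were the lowest of the 4 groups.

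NANOG is shown with its promoter because it gave the largest fall and because the joined SOX and OCT element, through which OCT4 and SOX2 are known to drive it, lies close to its start. The 250 bases before the RefSeq start site (chr12:7789152-7789401, GRCh38.p14, plus strand) hold 1 match to CATTGT followed by any base and ATGCAAA, on the minus strand from -120 to -107, in capitals. This motif was added after the values were seen. It occurs in 3 of 35116 RefSeq promoter windows of 300 bases (0.00854%), and it does not overlap the other motifs searched. A match describes the letters and says nothing of binding in these cells.
NANOG promoter: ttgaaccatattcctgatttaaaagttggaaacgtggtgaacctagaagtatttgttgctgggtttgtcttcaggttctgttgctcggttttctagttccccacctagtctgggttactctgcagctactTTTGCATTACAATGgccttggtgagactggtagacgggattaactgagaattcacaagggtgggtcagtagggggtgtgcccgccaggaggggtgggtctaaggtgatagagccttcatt

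Among stem cell RNA-binding and noncoding genes, 10 of 12 fell and 1 rose, with a median of -2.57. The transcript annotated to MIR302B, from the cluster of stem cell microRNAs that speed the cell cycle and repress differentiation genes, gave 28883, 25681 and 32544 in the untreated d0 arrays and 281, 275 and 269.9 in the Dox-labelled day 6 arrays. It fell by 99.3-fold (-6.63 ± 0.10, adjusted p = 1.28e-10) and was lower than in the RA-labelled arrays, at 6864 (-4.56 ± 0.10). POLR3G, a stem cell subunit of RNA polymerase III, fell from 4861 ± 535 to 211 ± 20.6 and RMST, a noncoding RNA that partners SOX2, from 1459.7 ± 119 to 59.3 ± 23.8. LIN28A, which blocks let-7 maturation, fell (-1.05 ± 0.08) and LIN28B (-0.30 ± 0.07). IGF2BP1, an RNA-binding protein of fetal tissue, was the 1 rise (0.49 ± 0.10, lost when probe sets were averaged), and IGF2BP3 did not pass.

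The mature microRNAs were not measured. Their sequences are shown because the transcript that fell carries a family with a single seed: the 3p arms of miR-302a, miR-302b, miR-302c and miR-302d share bases 2 to 8, AAGUGCU, in capitals, and miR-367 from the same cluster has AUUGCAC. All lie on the minus strand of chromosome 4 (RefSeq, GRCh38.p14), between 112647877 and 112648547.
miR-302a-3p: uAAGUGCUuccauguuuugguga
miR-302b-3p: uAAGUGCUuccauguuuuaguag
miR-302c-3p: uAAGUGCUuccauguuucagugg
miR-302d-3p: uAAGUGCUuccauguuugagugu
miR-367-3p: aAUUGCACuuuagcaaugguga

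Surface and signalling markers of stem cells followed. All but 1 of 18 fell, with a median of -2.04; the exception was PODXL, which carries the TRA-1-60 epitope (-0.22 ± 0.09, not passed). PTPRZ1, a receptor phosphatase, fell from 14087 ± 203 to 457 ± 41.5, GDF3, a TGF-beta family ligand, from 1419.9 ± 106 to 59.3 ± 23.6 and SFRP2, a secreted WNT antagonist, from 6164 ± 128 to 329.6 ± 17.4. EPCAM, an epithelial adhesion molecule, fell (-0.93 ± 0.10) and CD24 (-0.72 ± 0.10), and both were higher than in the RA-labelled arrays. The 7 pluripotent markers used to check the cell type (NANOG, SOX2, PRDM14, LIN28A, L1TD1, DNMT3B and ZFP42) all fell, and their summed signal went from 90155 to 97188 at d0 to 13822 to 14907 at Dox-labelled day 6. LIN28A remained at 9447 ± 346.

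The FGF pathway fell as a rule, 16 of 21 genes with 4 rises and a median of -1.24. Of the ligands, FGF19 fell from 359 ± 9.95 to 4.95 ± 1.71, FGF8 from 236 ± 40.4 to 8.27 ± 8.64 and FGF4 from 359.7 ± 34.6 to 33.0 ± 23.7; the first 2 of these have day 6 means under 16. FGF2, the growth factor that stem cell media supply, fell (-2.14 ± 0.11). Among the receptors FGFR4 fell from 1604 ± 7.95 to 139 ± 26.2 (-3.40 ± 0.17) and FGFR2 (-2.31 ± 0.08), and all 4 FGF receptors fell. The rises were the ligand FGF9 (1.33 ± 0.21), the ETS factor ETV5 (1.49 ± 0.11), SPRED2 (1.51 ± 0.15) and SPRY2 (0.65 ± 0.07), the last 2 being feedback inhibitors of the pathway.

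The list of NODAL and TGF-beta genes was split. Of 20 measured, 8 rose and 8 fell, with a median of 0.06. NODAL itself gave 4541, 3931 and 4248 in the untreated d0 arrays and 136, 68.4 and 173 in the Dox-labelled day 6 arrays. FOXH1, the DNA-binding partner of SMAD2, fell from 3559 ± 313 to 104 ± 22.4 (-4.92 ± 0.16) and CER1, a secreted NODAL and BMP inhibitor, from 1393 ± 152 to 35.7 ± 24.9 (-4.86 ± 0.30). Among ligands, TGFB1 rose from 99.3 ± 24.0 to 2343 ± 213 (4.37 ± 0.16), TGFB2 from 507 ± 82.5 to 7808 ± 379 (3.91 ± 0.12) and INHBA by 5.35. TGFB3 (0.65 ± 0.14) and INHBE (1.82 ± 0.08) rose too. INHBA was 2.56 ± 0.18 higher than in the RA-labelled arrays, whereas the receptors TGFBR1 (-0.08 ± 0.08) and TGFBR2 (0.22 ± 0.09) did not pass against d0.

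Retinoid genes rose in most cases. Of 26 measured, 17 rose and 3 fell, with a median of 1.69, and 17 were higher, none lower, in the Dox-labelled than in the RA-labelled arrays. With the RA-labelled arrays in place of the Dox-labelled ones 11 rose and 5 fell, and with genes under the median level left out 11 rose and 1 fell. RARB, the receptor gene that retinoic acid induces through its own response element, gave 73.8, 34.2 and 64.7 in the untreated d0 arrays and 1989, 1967 and 1957 in the Dox-labelled day 6 arrays. It rose by 27.8-fold (4.80 ± 0.19, adjusted p = 2.14e-08); the RA-labelled arrays lay at 233, 189 and 239, between the untreated and the Dox-labelled ones. CRABP2, which carries retinoic acid to its receptors, gave 429.6, 488 and 408 in the untreated d0 arrays and 14695, 15521 and 14196 in the Dox-labelled day 6 arrays and rose by 5.02 ± 0.10. CYP26A1, the other retinoic acid oxidase, gave 4784, 4368 and 4329.8 in the untreated d0 arrays and 30701, 29345 and 28736 in the Dox-labelled day 6 arrays. It was already well measured in untreated cells and rose by 2.72 ± 0.09, while the RA-labelled arrays lay at 312, 259.9 and 241, below every untreated array. The difference between the day 6 groups in CYP26A1 was 6.70 ± 0.09 (adjusted p = 2.65e-10).

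Another 4 members of the retinoid list were also highest in the Dox-labelled arrays. DHRS3, which turns retinal back to retinol, rose from 462 ± 39.0 to 5532 ± 180.1 with 631 in the RA-labelled arrays, and CYP24A1, the vitamin D hydroxylase, from 27.3 ± 7.47 to 869.6 ± 98.6 with 13.8. NRIP1, a corepressor bound by retinoic acid receptors, rose from 943 ± 63.2 to 8089 ± 503 with 2603, and MEIS1 from 26.5 ± 14.3 to 1199 ± 187 with 68.9. Of the receptors besides RARB, RARA rose by 1.78 ± 0.18 and RXRB by 1.08 ± 0.14, whereas RARG (0.44 ± 0.35), RXRA (-0.28 ± 0.21) and RXRG (0.20 ± 0.53) did not pass. The 3 falls were the retinaldehyde dehydrogenases ALDH1A3, which fell from 387 ± 46.2 to 68.7 ± 13.0, and ALDH1A2, with a level under 16 at day 6, and LRAT, which esterifies retinol (-0.72 ± 0.15). The label of these arrays names Dox and no RA, so the retinoid values, like those of NR6A1, go against the day 6 labels.

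RARB and CYP26A1 are shown with their promoters because both rose and because each holds a retinoic acid response element of the textbook form, a repeat of AGGTCA spaced by 5 bases, where each copy may also read AGTTCA or GGGTCA or GGTTCA (both strands searched; no overlap with the other motifs). RARB (RefSeq, chr3:25428013-25428262, GRCh38.p14, plus strand) has it at -53 to -37, and CYP26A1 (chr10:93073643-93073892, plus strand) on the minus strand at -90 to -74, in capitals. The motif occurs in 31 of 35116 promoter windows (0.0883%) and in 2 of 47 windows of retinoid genes (4.26%). Among windows of genes tested it occurs in 16 of 21490 (0.0745%). Genes that rose at least 2-fold had it in 4 of 2630 windows (0.152%, in CFLAR, COL24A1, CYP26A1 and RARB). Genes that fell as much had it in none of 1957 windows. None of the 27 windows of 20 HOX genes held it, and none of the 14 windows of the 10 genes among the 12 largest rises that the table covers, CYP26B1 included. The element TCAAGGTCA, to which GCNF is known to bind, was found in 124 windows (0.353%). Windows of genes tested held it in 55 of 21490 cases (0.256%). It was in 5 of those of rising genes (0.19%) and 6 of those of falling genes (0.307%). None of the 20 windows of 16 pluripotency transcription factors held it. POU5F1 and PRDM14 had no window, so their promoters were not searched. The repeat of AGGTCA with no base between the copies, also known for GCNF, occurred in 6 windows (0.0171%), none of them of genes that rose or fell at least 2-fold. The spacing of 2 bases gave 14 windows (0.0399%). No match in a window says only that these letters are not in it.
RARB promoter: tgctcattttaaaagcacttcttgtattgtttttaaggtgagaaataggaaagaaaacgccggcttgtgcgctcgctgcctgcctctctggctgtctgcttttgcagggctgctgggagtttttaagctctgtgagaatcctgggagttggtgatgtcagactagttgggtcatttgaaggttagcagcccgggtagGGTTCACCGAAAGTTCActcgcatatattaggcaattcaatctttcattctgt
CYP26A1 promoter: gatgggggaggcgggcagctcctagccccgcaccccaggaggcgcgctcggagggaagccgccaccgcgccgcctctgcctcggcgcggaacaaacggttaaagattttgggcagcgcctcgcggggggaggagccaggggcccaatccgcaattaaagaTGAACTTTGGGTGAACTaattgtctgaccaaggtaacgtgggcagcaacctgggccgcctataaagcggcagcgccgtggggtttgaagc

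HOX genes, which set position along the body axis, rose at the 3′ end of their clusters. Of 28 measured, 13 rose, none fell and 15 did not pass, with a median of 0.62. The HOXB cluster held 8 of the 13 rises. HOXB2 gave 82.3, 71.5 and 56.5 in the untreated d0 arrays and 2559, 2911 and 2513 in the Dox-labelled day 6 arrays and rose by 4.97 ± 0.15. From the 3′ end, the changes were 5.36 for HOXB1, 4.97 for HOXB2, 5.98 for HOXB3, 3.25 for HOXB4, 2.68 for HOXB5, 2.52 for HOXB6, 2.02 for HOXB7 and 0.98 for HOXB8. HOXB9 (0.27 ± 0.30) and HOXB13 (0.28 ± 0.18) did not pass, so the changes became smaller from HOXB3 to HOXB9. Of the HOXA cluster only HOXA2 was analysed here, and it rose from 16.3 ± 9.24 to 525 ± 51.3 (4.10 ± 0.22). HOXC4 (2.81 ± 0.26) and HOXC5 (1.66 ± 0.52) rose among 9 HOXC genes, and HOXD1 (2.15 ± 0.38) and HOXD4 (1.13 ± 0.38) among 8 HOXD genes. Against the RA-labelled arrays 10 HOX genes were higher and none lower, HOXB1 by 4.36 ± 0.20 and HOXB4 by 3.601 ± 0.35. With the RA-labelled arrays in place of the Dox-labelled ones 7 HOX genes rose and none fell. With genes under the median level left out, 1 HOX gene rose. Many HOX genes lay near 16 at d0, and with a constant of 1 or 64 in place of 16 the change of HOXB1 was 6.89 or 3.82 and that of HOXB3 7.47 or 4.59.

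**Figure D3:**
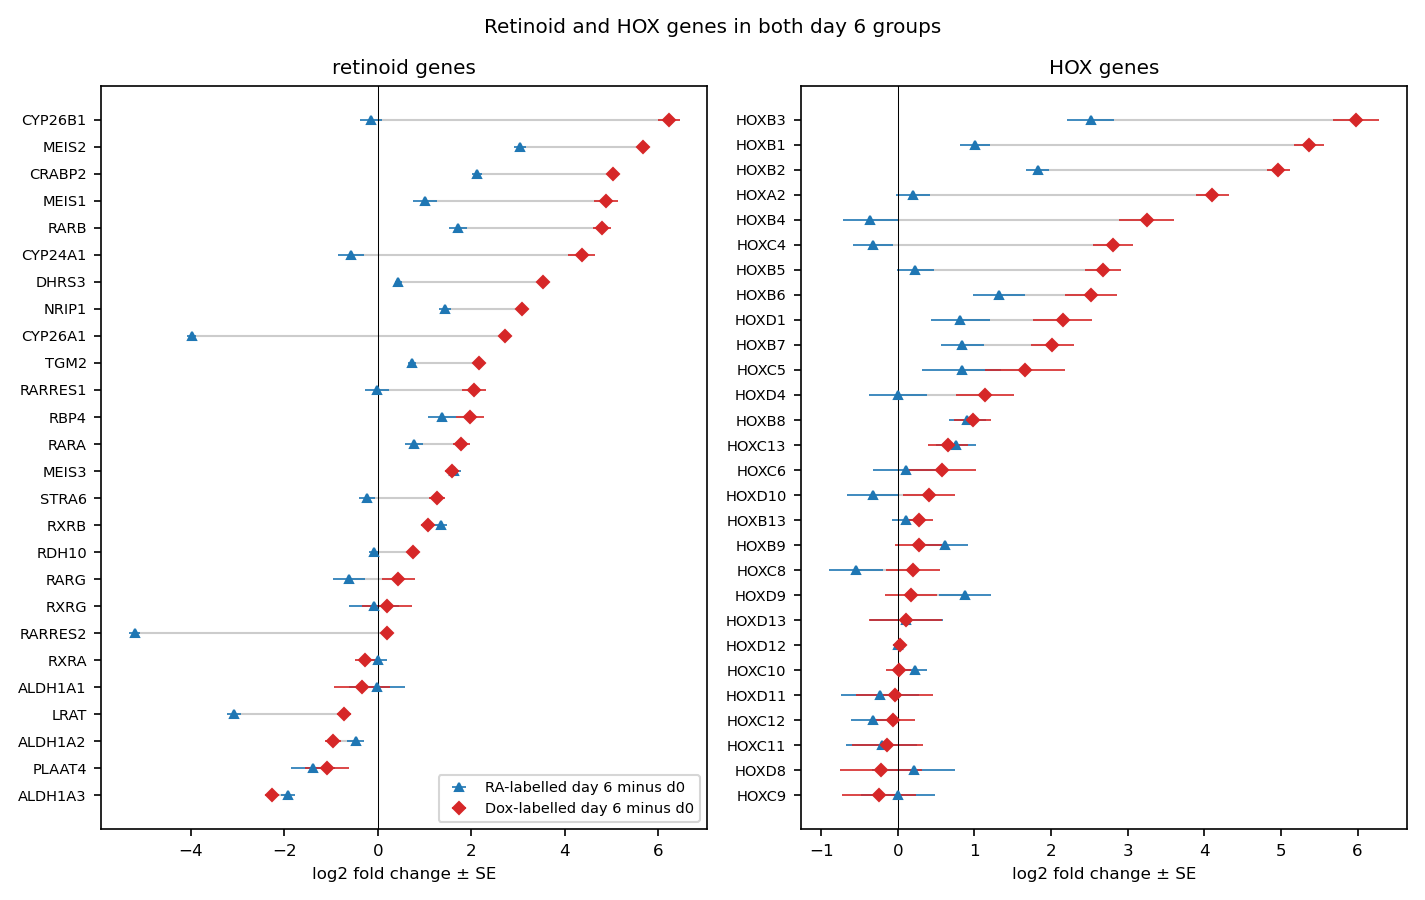
Log2 change from untreated d0 of retinoid genes (left) and HOX genes (right) in Dox-labelled (diamonds) and RA-labelled (triangles) day 6 arrays; bars are the SE of the fit and a grey line joins the 2 values of a gene. CYP26A1 lies at 2.72 in the Dox-labelled and -3.98 in the RA-labelled arrays, and HOXB3 at 5.98 and 2.52; both changes are taken against the same 3 untreated arrays.

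BMP pathway genes rose, 16 of 19 with 2 falls and a median of 1.78. Of the ligands, BMP5 rose from 43.3 ± 7.61 to 389 ± 36.4 (2.77 ± 0.12) and BMP2 by 1.41 ± 0.10, while BMP4 did not pass (0.21 ± 0.12) and BMP7 fell (-0.30 ± 0.08), a call lost with median centring and with the 6 arrays alone. Of the targets, MSX2, a homeobox gene of skull and limb, gave 124, 162 and 122 in the untreated d0 arrays and 2694, 2642 and 2698 in the Dox-labelled day 6 arrays and rose by 4.16 ± 0.14. MSX1 rose by 2.76 ± 0.15. ID1, ID2, ID3 and ID4, inhibitors of basic helix-loop-helix factors and direct BMP targets, all rose, by 0.61, 1.81, 1.78 and 2.38. The antagonist GREM1 gave 1684, 1949 and 1716 in the untreated d0 arrays and 678, 502 and 755 in the Dox-labelled day 6 arrays and fell (-1.46 ± 0.15), whereas the RA-labelled arrays lay at 11192, 11410.4 and 10901, above every untreated array. Of the list 12 were higher and 4 lower in the Dox-labelled than in the RA-labelled arrays.

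WNT and Notch genes were split. Of 30 WNT genes, 11 rose and 10 fell, with a median of 0.06. The ligand WNT4 rose from 5.15 ± 2.32 to 344 ± 17.6 (4.10 ± 0.25), from a d0 mean under 16, and WNT5A, a ligand of the noncanonical branch, from 510.5 ± 55.2 to 2630.2 ± 318 (2.33 ± 0.12). LEF1, which carries the WNT signal to DNA, rose by 2.69 ± 0.15. Falls were led by the antagonist SFRP2, by FZD5, a receptor, from 15956 ± 909 to 1411 ± 68.1 (-3.48 ± 0.11), and by the ligand WNT8A (-2.25 ± 0.46). The target AXIN2, often read as a gauge of canonical WNT signalling, fell (-0.79 ± 0.11). Of 18 Notch genes 7 rose and 5 fell. The effectors HES1 (from 262 ± 29.2 to 1756 ± 182) and HES4 (from 62.4 ± 16.1 to 509 ± 44.4) rose, as did the ligand JAG1 (1.84 ± 0.07), while HEY2 (-1.86 ± 0.10), HES6 (-1.66 ± 0.14) and the ligand DLL1 (-1.46 ± 0.21) fell.

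Of 16 primitive streak genes, 5 fell, 3 rose and 8 did not pass, so the share that passed was near the 48.5% of all genes. With genes under the median level left out, 1 rose and none fell. TBXT (brachyury), the defining streak factor, fell from 169 ± 37.9 to 79.6 ± 13.8 (-0.94 ± 0.26) and EOMES from 324 ± 87.8 to 32.6 ± 8.39 (-2.79 ± 0.21); MIXL1 fell to a level under 16 at day 6. The largest rise was GATA6, a factor of endoderm and heart mesoderm, which gave 213, 247 and 194 in the untreated d0 arrays and 8127, 8143 and 7825 in the Dox-labelled day 6 arrays and rose by 5.11 ± 0.10. The 1 other probe set of GATA6 did not pass and had the opposite sign. LHX1, a LIM homeobox factor, rose by 2.83 ± 0.42. CDX1 also rose, by 0.74 ± 0.26, at means of 9.77 and 26.9 and with the call lost when any 1 of the 6 arrays was left out.

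Endoderm and liver genes rose in 10 of 25 cases (40%) and fell in 3 (12%), against 24.6% and 23.8% of all genes. The share that passed, 52%, was near the 48.5% of all genes. With genes under the median level left out, 4 rose. AFP, the fetal albumin-like protein of yolk sac and liver, rose from 87.4 ± 13.1 to 1429 ± 559 (3.73 ± 0.41), FGB, a fibrinogen chain, from 12.4 ± 13.0 to 406 ± 153 (3.92 ± 0.63) and APOA2, an apolipoprotein, from 213 ± 25.6 to 1846 ± 326 (3.01 ± 0.53). The defining endoderm factors SOX17 (-0.37 ± 0.20) and FOXA2 (0.17 ± 0.28) did not pass, and ALB lay at 22.4 and 25.3. CXCR4, a chemokine receptor of definitive endoderm, fell from 858 ± 23.7 to 98.4 ± 11.4 (-2.94 ± 0.10) and FOXA3 (-1.70 ± 0.10). CER1, described above with NODAL, is also in this list and fell most (-4.86). Over the 3 endoderm markers SOX17, FOXA2 and AFP, 1 rose, and the summed signal went from 213 to 267 at d0 to 895 to 2059 at day 6.

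Of 19 transcription factors of heart and lateral mesoderm, 12 rose and none fell; with genes under the median level left out, 1 rose. MEF2C, a muscle and vessel factor, rose from 56.7 ± 30.3 to 1016 ± 59.1 (3.91 ± 0.25), FOXC2 from 158 ± 30.1 to 1927 ± 38.7 (3.496 ± 0.13) and TBX3 from 49.1 ± 2.61 to 705 ± 157 (3.45 ± 0.18). NKX2-5, the defining cardiac factor, did not pass (-0.30 ± 0.38) and neither did MYH6, a heart myosin (-0.22 ± 0.38); TNNT2 was not analysed here. These 2 cardiac markers summed to 44.4 to 103 at d0 and 38.3 to 59.3 at day 6. Contractile genes rose in 15 of 26 cases, led by CNN1 (from 412 ± 103 to 4439.5 ± 181), ACTA2 (from 1049.7 ± 10.3 to 11239.8 ± 234) and LMOD1 (2.36 ± 0.24), all typical of smooth muscle. RYR2, the heart calcium release channel, fell (-1.89 ± 0.23) and MYL4, an atrial light chain (-1.03 ± 0.26), the latter a call lost when probe sets were averaged.

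Endothelial and blood genes gave 9 rises, 2 falls and 11 that did not pass among 22; with genes under the median level left out, 2 rose. FLI1, an ETS factor of vessels and blood, rose from 47.4 ± 5.81 to 726 ± 84.1 (3.55 ± 0.11), LMO2 from 165 ± 23.7 to 1242 ± 71.1 (2.80 ± 0.15) and GATA2 by 2.14 ± 0.16. KDR, the VEGF receptor, fell from 1969 ± 68.9 to 364 ± 28.2 (-2.39 ± 0.11) and FLT1, its relative (-1.88 ± 0.07). The endothelial markers PECAM1, CDH5 and KDR summed to 2050.2 to 2154 at d0 and 569 to 706 at day 6, and CDH5 alone rose, from 46.3 ± 18.5 to 144 ± 56.4. The blood markers PTPRC, GATA1 and HBE1 summed to 63.5 to 88.9 and 145 to 271, with 2 rises.

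Neural progenitor genes gave 5 rises and 4 falls among 27, where 48.5% of all genes passed. With quantile normalization or median centring 8 rose. IRX3, a homeobox factor of hindbrain and spinal cord, gave 333, 317 and 319.8 in the untreated d0 arrays and 5203, 4165 and 5158 in the Dox-labelled day 6 arrays and rose by 3.83 ± 0.24. NES, the intermediate filament nestin, rose from 2701 ± 205 to 7291 ± 249 (1.43 ± 0.08). PAX6 (0.63 ± 0.26) and SOX1 (0.40 ± 0.39), the defining factors of neural tissue, did not pass, while ZIC2 and SOX3 (-1.23 ± 0.11) fell. Of 22 neuronal genes 7 rose (31.8%) and 5 fell (22.7%), against 24.6% and 23.8% of all genes, with a median of 0.05. The share that passed, 54.5%, was near that of all genes. NEFM, a neurofilament, gave 314, 309.5 and 409.6 in the untreated d0 arrays and 4784, 4759.9 and 4891 in the Dox-labelled day 6 arrays, with 278 as the RA-labelled mean, and rose by 3.75 ± 0.12. The 1 other probe set of NEFM did not pass and had the opposite sign. NEFL, another neurofilament, rose by 3.19 ± 0.08 and STMN2, a growth cone protein, from 1051 ± 38.4 to 10035 ± 417 (3.24 ± 0.08). DCX fell (-1.08 ± 0.14) and TUBB3 (-0.40 ± 0.07). The 4 neural markers PAX6, SOX1, TUBB3 and DCX held 2 falls and no rise, and summed to 10199 to 11405 at d0 and 7687 to 8469 at day 6.

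Neural crest and placode genes rose in 16 of 26 cases and fell in 3, with a median of 1.88; with genes under the median level left out, 7 rose. SOX9, a factor of crest and cartilage, gave 164, 176 and 139 in the untreated d0 arrays and 2541, 2989.6 and 3109.9 in the Dox-labelled day 6 arrays and rose by 4.04 ± 0.11. SNAI2, which drives crest cells out of the neural tube, rose from 160.1 ± 22.0 to 2366 ± 122 (3.76 ± 0.11), TFAP2A from 285 ± 11.2 to 1899.9 ± 309 (2.66 ± 0.12) and TFAP2B by 2.33 ± 0.18. All 5 DLX genes measured rose, DLX2 by the most. The 1 other probe set of DLX2 did not pass and had the opposite sign. SOX10, the defining factor of migrating crest, did not pass, with 83.0 ± 56.6 at d0 and 68.4 ± 14.8 at day 6. FOXD3, described above with the pluripotency factors, fell most of the list (-3.79), to a day 6 mean under 16. The 2 other probe sets of FOXD3 did not pass. EDNRB fell (-2.41 ± 0.10) and ERBB3 (-2.04 ± 0.12). Of the 26 genes 14 were higher in the Dox-labelled than in the RA-labelled arrays and 1 lower.

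Trophoblast and amnion genes gave 9 rises and 4 falls among 24. Beside KRT7, SLC40A1, the iron exporter, rose from 107 ± 10.1 to 2131 ± 99.6 (4.13 ± 0.16) and GATA3 from 374 ± 7.44 to 5428 ± 139.6 (3.804 ± 0.06). The hormone subunit CGA, a defining trophoblast product, was at 6.74 and 4.46, under 16 in both groups, and CGB3 had no probe set of its own in the annotation used. PSG1, a pregnancy-specific glycoprotein, fell from 129 ± 28.8 to 25.9 ± 18.3 (-1.86 ± 0.29), with 404, 431 and 355 in the RA-labelled arrays. Germ cell genes gave 1 rise, PRDM1 (2.16 ± 0.09), and 3 falls among 15; DAZL, an RNA-binding protein of germ cells, fell from 309 ± 69.3 to 14.5 ± 12.3 (-3.48 ± 0.30), KIT (-1.79 ± 0.12) and TFAP2C (-1.15 ± 0.24).

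Mesenchymal genes rose and epithelial genes were divided. Of 23 mesenchymal genes 17 rose and 2 fell, with a median of 1.61. The 2 falls were THY1 and TCF4, and all other probe sets of both genes were also called lower. ZEB1, a repressor of epithelial genes, gave 79.6, 104 and 93.6 in the untreated d0 arrays and 2268, 2331 and 2348 in the Dox-labelled day 6 arrays and rose by 4.43 ± 0.09. PDGFRA rose from 264 ± 12.02 to 3604 ± 330.3 (3.69 ± 0.19), and VIM, the intermediate filament vimentin, from 9275 ± 575 to 26786 ± 629 (1.53 ± 0.08). None of the 3 other probe sets of PDGFRA passed, and 1 of them had the opposite sign. SNAI1, like ZEB1 a repressor of epithelial genes, did not pass (0.18 ± 0.29). Of 27 epithelial genes 16 fell and 8 rose. CDH1 (E-cadherin) gave 13574, 12761 and 13237 in the untreated d0 arrays and 5839, 6129 and 5137 in the Dox-labelled day 6 arrays and fell (-1.21 ± 0.08), with 1534, 1395 and 1365 in the RA-labelled arrays. ESRP1, an epithelial splicing factor, fell (-1.77 ± 0.20), MARVELD3 (-1.72 ± 0.14) and CLDN7, a tight junction protein (-1.70 ± 0.11). The rises were cytoskeletal and junction genes such as KRT8 (from 1704 ± 56.6 to 20279.9 ± 240.2), KRT18 (from 8014 ± 754 to 34262 ± 369.5) and KRT19 (from 1213 ± 76.7 to 4938 ± 748). Of the 27 epithelial genes 21 were higher in the Dox-labelled than in the RA-labelled arrays and 3 lower, CDH1 by 1.98 ± 0.08.

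Matrix genes rose in 37 of 43 cases, with a median of 1.65. POSTN (periostin) gave 308, 261 and 293 in the untreated d0 arrays and 10664, 10386 and 11485 in the Dox-labelled day 6 arrays and rose by 5.16 ± 0.13, and the RA-labelled arrays lay at 1275, 979.9 and 872, between the untreated and the Dox-labelled ones. TIMP3, an inhibitor of matrix proteases, rose from 528 ± 48.1 to 8459 ± 386 (3.96 ± 0.08), and FN1 (fibronectin) from 19612 ± 1545 to 40001 ± 2328 (1.03 ± 0.10). The falls were COL9A3 (-0.97 ± 0.10), VCAN (-0.43 ± 0.08) and COL6A1 (-0.61 ± 0.08); another probe set of COL6A1 was called higher, and averaging its probe sets ended the call. Against the RA-labelled arrays the list was split, with 16 higher and 15 lower. The fibroblast markers COL1A1, LUM and DCN all rose, by 1.32, 2.16 and 1.75, and summed to 14067 to 17230.3 at d0 and 38084 to 40647 at day 6. COL1A1 itself gave 14953 ± 1542 at d0, so untreated cultures already carried a COL1A1 signal.

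Cell cycle genes fell almost without exception. All 28 mitosis genes fell, with a median of -1.499, and 26 of 27 DNA replication genes, with a median of -1.39; TYMS, thymidylate synthase, was the one that did not pass (-0.15 ± 0.09). MKI67, the Ki-67 antigen of cycling cells, gave 1156, 1289 and 1148 in the untreated d0 arrays and 131, 193 and 229 in the Dox-labelled day 6 arrays and fell (-2.63 ± 0.18). BUB1, a kinase of the spindle checkpoint, fell from 5336 ± 164 to 915 ± 58.3 (-2.52 ± 0.07) and ASPM, a spindle pole protein, from 6783 ± 89.0 to 1519 ± 63.99 (-2.15 ± 0.09). MCM5, a subunit of the replicative helicase, gave 3159, 3070.5 and 3597 in the untreated d0 arrays and 513, 566 and 523 in the Dox-labelled day 6 arrays and fell (-2.58 ± 0.10), while MCM10 fell (-2.67 ± 0.21) and CDT1, which loads the helicase (-2.30 ± 0.21). The Dox-labelled arrays were nevertheless higher than the RA-labelled ones in 27 of the 28 mitosis genes, by a median of 1.04, and in 23 of the 27 replication genes, by a median of 0.68, where 13.7% of all genes were higher. CCNB1 (cyclin B1), for example, lay at 7364 ± 131 at d0, 2510.4 ± 169 in the Dox-labelled and 1490.4 ± 111 in the RA-labelled arrays.

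Cell cycle inhibitors and D cyclins, listed together, mostly rose over the same arrays. Of 16 inhibitors and D cyclins, 12 rose and 3 fell. The D cyclins CCND1, CCND2 and CCND3 are counted with the inhibitors and were not among the falls. CDKN2B (p15) gave 296, 274 and 268 in the untreated d0 arrays and 6359, 6462 and 7467 in the Dox-labelled day 6 arrays and rose by 4.52 ± 0.11, and CDKN2A (p16 and ARF) rose from 79.0 ± 13.3 to 1849 ± 164 (4.30 ± 0.23). CDKN1A (p21), the p53 target that halts the cycle, gave 627, 570.4 and 940.4 in the untreated d0 arrays and 5530.2, 5444 and 5982 in the Dox-labelled day 6 arrays and rose by 2.99 ± 0.18. The falls were GADD45G (-1.46 ± 0.38), RBL1, which pairs with repressive E2F factors (-1.37 ± 0.13), and CDKN1B (-0.28 ± 0.10), the last a call lost with median centring, with averaged probe sets, with the 6 arrays alone and without any 1 of the 6 arrays but untreated replicate 3. Of 19 p53 response genes 17 rose and none fell. PLK2 rose from 1421 ± 43.7 to 13919.7 ± 438 (3.28 ± 0.09) and GDF15, a stress hormone, from 723 ± 19.5 to 6864 ± 407 (3.22 ± 0.09). MDM2, which degrades p53, rose by 1.45 ± 0.09, and BAX, a trigger of cell death, did not pass (-0.00 ± 0.08).

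**Figure D4:**
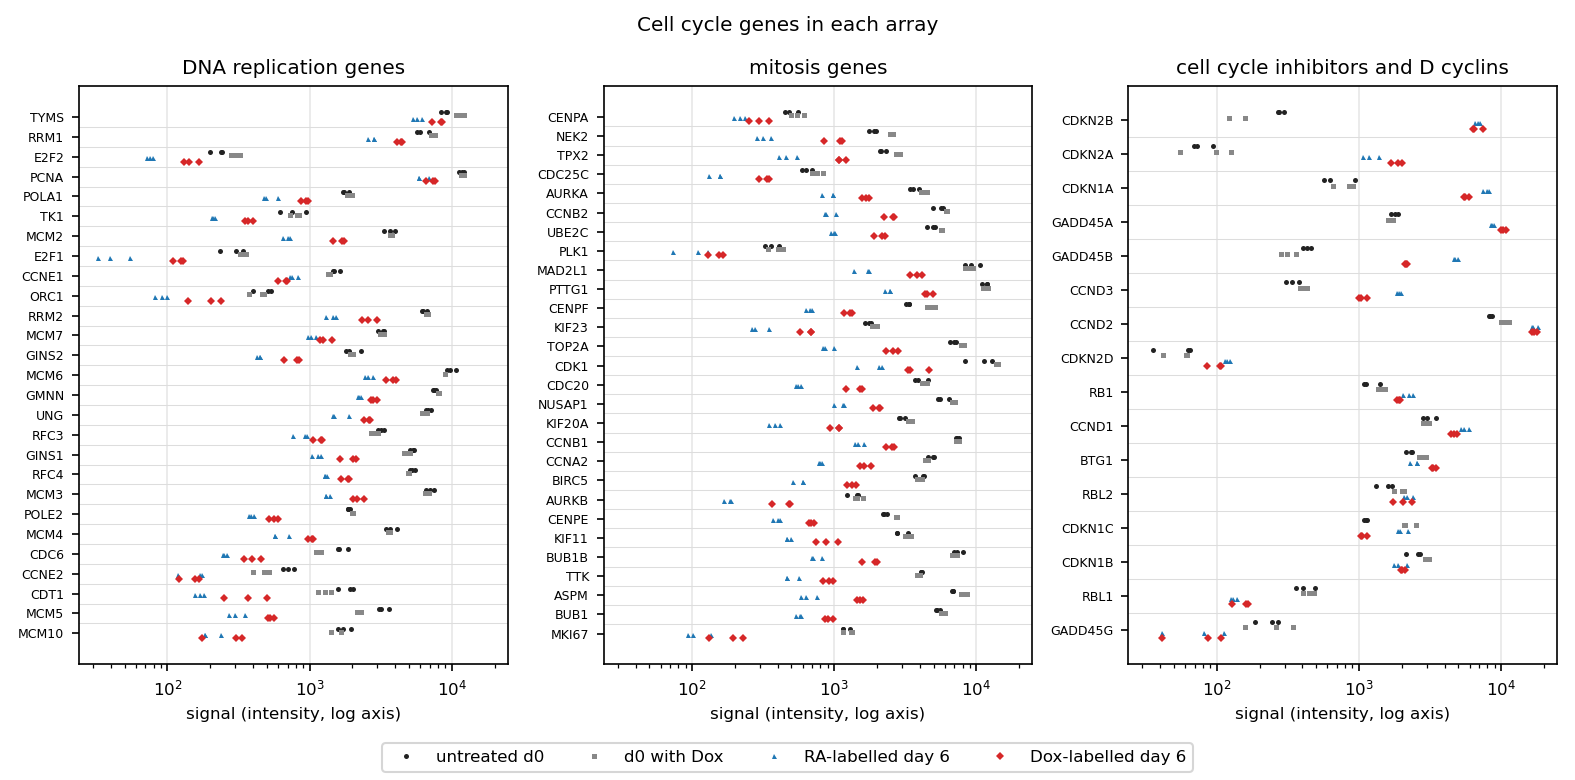
Signal of DNA replication genes (left), mitosis genes (middle) and cell cycle inhibitors and D cyclins (right) in every array, as linear intensity on a log axis; each point is 1 array, 3 per group. For MKI67 the untreated arrays lie at 1156, 1289 and 1148, the Dox-labelled day 6 arrays at 131, 193 and 229 and the RA-labelled arrays at 136, 94.2 and 102.

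DNA methylation and Polycomb genes fell in 14 of 24 cases and rose in 5. DNMT3B, the de novo methyltransferase of early embryonic cells, gave 19146, 16801 and 19515 in the untreated d0 arrays and 1186, 1196 and 1112 in the Dox-labelled day 6 arrays and fell (-3.97 ± 0.09). TET1, which oxidises methylated cytosine, fell from 6439 ± 329 to 1267 ± 115 (-2.33 ± 0.09) and TET2, its relative, rose by 1.51 ± 0.11. JARID2, a partner of the Polycomb complex, fell from 8300.2 ± 1105 to 1867 ± 31.0 (-2.13 ± 0.13), and EZH2, its catalytic subunit (-0.88 ± 0.09). HDAC9 rose by 1.08 ± 0.10 and MBD1 by 0.59 ± 0.11, the latter a call lost when probe sets were averaged or 2-fold was asked for.

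Stress and serum response genes rose. Of 27 serum and YAP response genes 22 rose and none fell, with a median of 1.10. EGR3 (from 20.8 ± 16.5 to 615 ± 49.9), FOSB (from 6.72 ± 3.44 to 402 ± 112) and ANKRD1 (from 566 ± 79.6 to 7837 ± 160.2) rose most, the first 2 being immediate early transcription factors and the third a YAP target. CCN2 (CTGF), another YAP target, rose by 0.71 ± 0.08, and ACTB by 0.30 ± 0.08, with the ACTB call lost under quantile normalization. Of 25 integrated stress response genes 20 rose and none fell. ALDH1L2, a mitochondrial folate enzyme, rose from 61.5 ± 12.6 to 849.7 ± 4.69 (3.49 ± 0.12), DDIT4, an inhibitor of mTORC1, from 1095 ± 39.6 to 9630.1 ± 914 (3.11 ± 0.09) and DDIT3 (CHOP) from 89.1 ± 35.7 to 754 ± 100.2 (2.92 ± 0.22). HSPA5, the chaperone that marks endoplasmic reticulum stress, did not pass (-0.04 ± 0.06).

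Metabolic genes were split by pathway. Of 29 glycolysis and hypoxia genes 15 rose and 7 fell: NDRG1 rose by 2.48 ± 0.15, VEGFA from 1742 ± 70.9 to 7087 ± 270.1 (2.01 ± 0.07) and PFKFB3, which makes an activator of glycolysis, by 1.78 ± 0.13, while PDK1 fell (-1.03 ± 0.08) and HK2, a hexokinase (-0.85 ± 0.14). GAPDH rose by 0.23 ± 0.07, a call lost under quantile normalization, with the 6 arrays alone and without untreated replicate 2 or Dox-labelled replicate 1 or 2. Genes of the mitochondrial ribosome fell in 26 of 39 cases and rose in 2, with a median of -0.36; MRPL16 fell most (-1.22 ± 0.08). Respiratory chain genes fell in 12 of 35, and 22 did not pass, with CYCS (cytochrome c) down from 19595 ± 827 to 11147 ± 378. The 1 rise, SDHC (0.42 ± 0.14), has another probe set called lower and was lost when probe sets were averaged. Cholesterol and fatty acid synthesis genes fell in 14 of 17, led by INSIG1, the sterol sensor (from 4358 ± 461 to 1214 ± 128), DHCR7, a late enzyme of the pathway (from 2576 ± 128 to 726 ± 131), and EBP (-1.69 ± 0.09).

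IGF genes rose in 9 of 15 cases. IGFBP6 gave 255, 182 and 249 in the untreated d0 arrays and 8933, 9508 and 9689 in the Dox-labelled day 6 arrays, with 746 in the RA-labelled arrays, and rose by 5.27 ± 0.14. IGFBP3, the main carrier of IGF in serum, rose from 2029 ± 111 to 26619.9 ± 1094 (3.70 ± 0.17), with 2448 in the RA-labelled arrays. INSR, the insulin receptor, fell (-1.001 ± 0.11). Among 23 nuclear receptors 8 rose and 5 fell. PPARG, the fat cell regulator, rose from 11.5 ± 10.2 to 429 ± 90.1 (4.06 ± 0.34) from a d0 mean under 16, NR2F1 (COUP-TFI) from 114 ± 22.0 to 1775 ± 327 (3.78 ± 0.17) and VDR, the vitamin D receptor, from 49.5 ± 17.1 to 567 ± 86.6 (3.18 ± 0.20). THRB, a thyroid hormone receptor, fell (-1.60 ± 0.25).

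The list of MHC class I genes gave 7 rises and 4 falls among 17. The falls include CD74, the invariant chain of MHC class II, which the list also holds. Falls made up 23.5% of the list, where 23.8% of all genes fell. B2M, the light chain of MHC class I, rose from 11867 ± 337 to 24778 ± 531 (1.06 ± 0.06) and HLA-B from 8809.8 ± 632 to 14461 ± 422 (0.72 ± 0.07), which shares sequence with other HLA genes. PSMB9, an immunoproteasome subunit, rose by 0.94 ± 0.30, a call lost with the 6 arrays alone and without untreated replicate 1 or Dox-labelled replicate 1 or 2, and PSMB10, another, fell (-0.97 ± 0.11). Guidance genes rose in 17 of 28 cases and fell in 5. NRP1 (from 60.1 ± 4.67 to 805 ± 109) and NRP2 (from 508 ± 46.6 to 5449 ± 273), receptors shared by semaphorins and VEGF, rose. ROBO2, the SLIT receptor, gave 240.4, 207 and 176 in the untreated d0 arrays and 1521, 1448 and 1394 in the Dox-labelled day 6 arrays and rose by 2.73 ± 0.19. EPHA1 (from 2893 ± 236 to 195 ± 29.4), UNC5D (from 2719 ± 85.9 to 279 ± 43.3) and SEMA6A (from 10542 ± 581 to 1194 ± 68.0) fell.

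**Figure D5:**
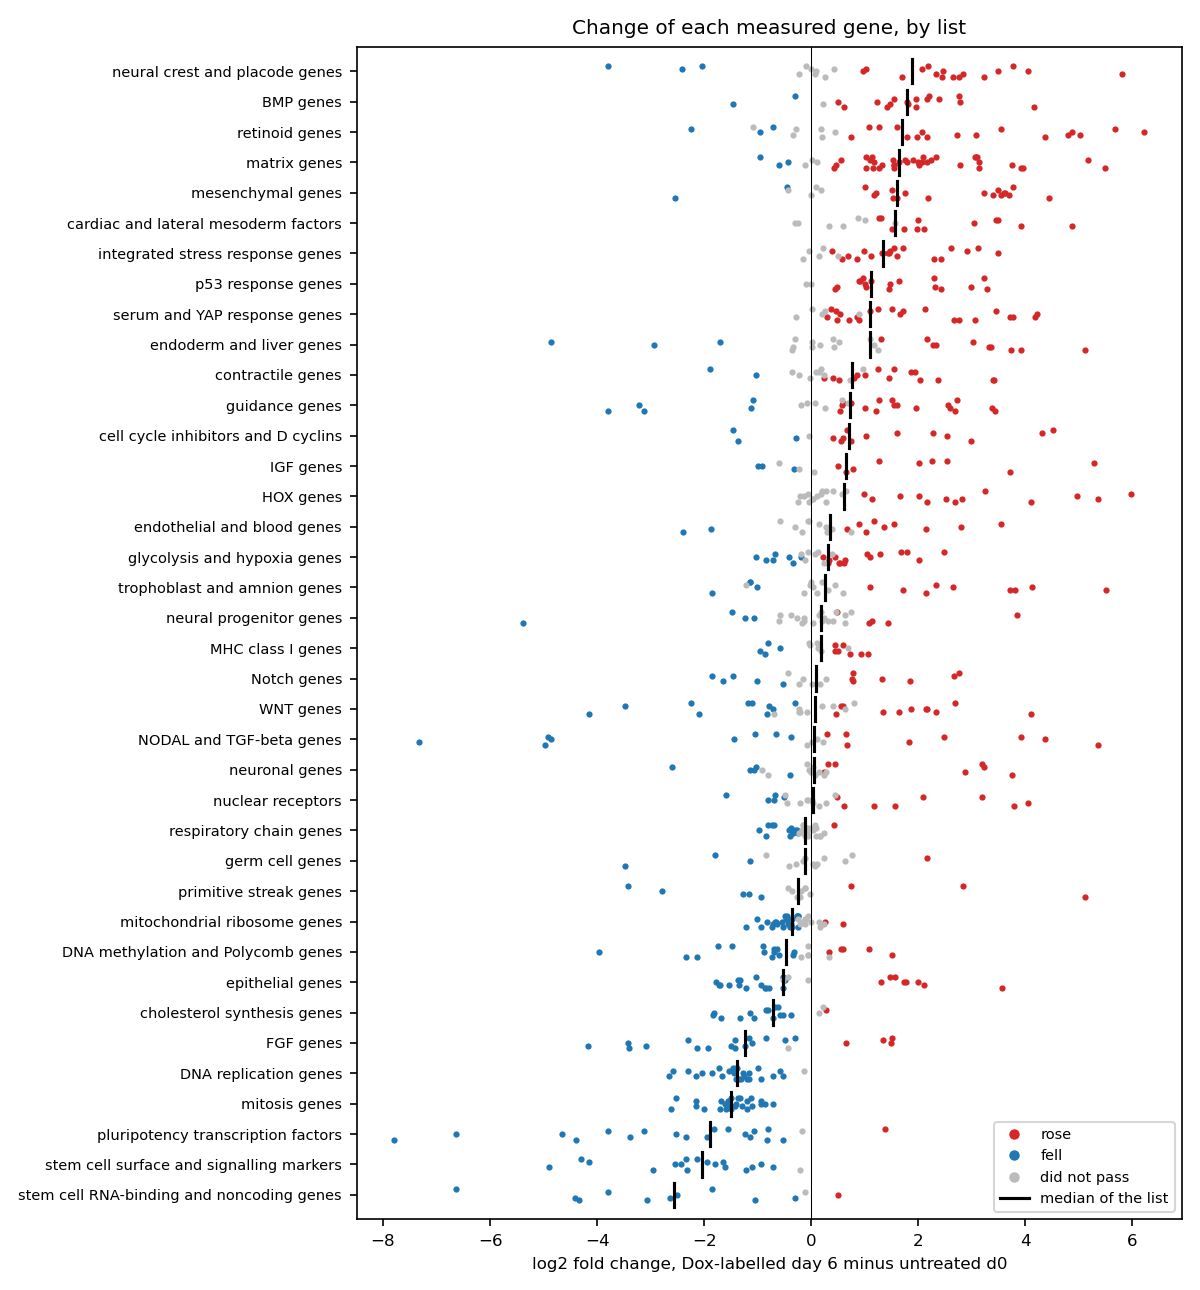
Log2 change from untreated d0 to Dox-labelled day 6 of every measured gene in 38 lists (rows, in order of their medians); red points rose, blue points fell, grey points did not pass and the black bar is the median of the list. Medians run from -2.57 for stem cell RNA-binding and noncoding genes to 1.88 for neural crest and placode genes, against -0.01 over all genes.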

How the data were processed

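RNA from 12 cultures was measured on Affymetrix HG-U133 Plus 2.0 arrays, 3 per group. The deposited files hold 1 linear intensity for each of 54675 probe sets. Per the values in the deposited columns, each array was scaled to a trimmed mean of 500 after leaving out 2% of probe sets at either end. The software that made these intensities was not given in the sources used here. Of the probe sets, 42898 were listed in the platform annotation (41097 with 1 gene symbol, 1801 with several) and 11777 were not. Each of 19775 genes was read from 1 probe set, the one whose log2 values had the highest mean.

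Values were taken as log2(intensity + 16) and fitted with limma 3.58.1 in R 4.3.3, with a mean for each of the 4 groups over all 12 arrays, giving 8 residual degrees of freedom. P-values were two-sided and Benjamini-Hochberg adjusted over all genes (over all probe sets for NR6A1 and POU5F1), with 0.05 as threshold. Fold changes are on the log2(intensity + 16) scale and understate changes of dim genes. With 3 arrays a group the number of arrays limits the precision, and p-values measure the spread between these samples, which may be partly technical. In log2 values simulated with known changes, the fit called 47 of 50 genes changed 2-fold, 28 of 50 changed 1.5-fold and 8 of 19575 unchanged genes. The changed genes were all at or above the median level, and far fewer genes were changed than passed in the data. These rates therefore do not cover dim genes.

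The comparison and the 38 gene lists (953 genes, 864 measured) were chosen with earlier results of these data known. Genes were named by a rule: the 12 largest changes each way among called genes without overlap between groups and whose higher mean reached that of the median gene, the 3 largest called changes each way in each list, and NR6A1, POU5F1, DNMT3B, SOX2, NANOG, CDH1, VIM, CYP26A1, ACTB and GAPDH. Other genes of a list were named for their known role, after their values were seen. Alternatives were quantile normalization, median centring, constants of 1 and 64, averaged probe sets, all probe sets, genes at or above the median level, other variance models, the 6 arrays alone, the replicate block, a 2-fold minimum and each array left out. No pairing by replicate number was seen between the untreated and the Dox-labelled arrays: deviations of same-numbered arrays from their group means correlated at 0.000959 to 0.00957. Whether same-numbered cultures were grown together is not given in the labels.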

Additional observations from a re-analysis of the deposited data

Results flagged for a closer look

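For 8 of the 199 genes named by rule, the change from untreated d0 passed in opposite directions in the Dox-labelled and the RA-labelled day 6 arrays, and the difference between the 2 day 6 groups itself passed (limma, Benjamini-Hochberg adjusted p over all genes, 3 arrays a group). Both changes use the same 3 untreated arrays. CYP26A1, a retinoic acid oxidase, changed by 2.72 in the Dox-labelled and -3.98 in the RA-labelled arrays, a difference of 6.70 (adjusted p = 2.65e-10). The BMP antagonist GREM1 changed by -1.46 and 2.64, a difference of -4.10 (adjusted p = 8.65e-08). The guidance receptor ROBO2 changed by 2.73 and -1.22, a difference of 3.95 (adjusted p = 5.68e-07). The pregnancy-specific glycoprotein PSG1 changed by -1.86 and 1.52, a difference of -3.38 (adjusted p = 2.34e-05). The immunoproteasome subunit PSMB9 changed by 0.94 and -1.47, a difference of 2.41 (adjusted p = 0.000262). The atrial light chain MYL4 changed by -1.03 and 1.21, a difference of -2.24 (adjusted p = 0.000143). The growth factor receptor IGF1R changed by -0.32 and 0.46, a difference of -0.78 (adjusted p = 0.00025). The mitochondrial ribosome gene MRPL27 changed by 0.26 and -0.20, a difference of 0.46 (adjusted p = 0.00127). The change from d0 in the Dox-labelled arrays was lost under at least 1 alternative for PSMB9, MYL4, IGF1R and MRPL27.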

How the results depend on the processing

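None of the 199 genes named by rule reversed its direction from d0 under the alternatives that kept the Dox-labelled arrays and 1 value for each gene; 148 of the 199 could be tested with dim genes left out. With the RA-labelled arrays in place of the Dox-labelled ones, the 8 genes listed above changed in the opposite direction. Tested one by one, COL6A1, NR6A1 and SDHC each had another probe set called the opposite way. Of the 133 named genes with several probe sets, 32 had no other probe set called the same way. These include CYP26B1, DLX2, HOXB1, HOXB3, KRT7, GATA6, NEFM, PDGFRA, TGFB1, LMO2 and MSX1. Calls lost were 33 with a 2-fold minimum, 11 with averaged probe sets, 5 with the 6 arrays alone, 4 with quantile normalization, 3 with median centring, 2 and 1 with constants of 1 and 64, 1 with the trended variance and 0 with array weights. Leaving out 1 array lost 1 to 7 of these calls. The count of called genes ran from 7529 with dim genes left out, where fewer genes were tested, to 9931 with the trended variance. Tested one by one, 20478 probe sets passed (9085 higher, 11393 lower), and 8471 between the day 6 groups. With a 2-fold minimum 3883 genes passed (2036 higher, 1847 lower). Without 1 array, 8857 to 9156 genes passed, 4489 to 4704 higher and 4363 to 4458 lower, and 4043 to 4490 between the day 6 groups. With the RA-labelled in place of the Dox-labelled arrays, added after the data were seen, 9993 genes passed, and 16 of the 76 counts of list members called in 1 direction moved by over 1.5 times. Of these 76 counts, 27 moved as much with the 2-fold minimum and 20 with dim genes left out, where fewer members were tested. In the latter, rises went from 13 to 1 for HOX genes, from 12 to 1 for cardiac and lateral mesoderm factors, from 9 to 2 for endothelial and blood genes and from 10 to 4 for endoderm and liver genes. Median centring moved 5 of these counts and the other alternatives 0 to 4. With the replicate number as a block, although no pairing by number was seen, 9499 genes passed (4806 higher, 4693 lower) and 4901 between the day 6 groups. Genes with means near 16 in a group have fold sizes that depend on the added constant.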
